A study of Mus musculus with 6 samples.

Results

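The genes described here encode the AP-1 transcription factors and other immediate early proteins: Jun, Junb, Jund, Fos, Fosl1, Fosl2, Egr1, Ier2, Ier3 and Maff. They were chosen by name, and every array probe whose annotated symbol is one of these 10 was taken. This gave 13 of the 45281 probes, covering 9 of the 10 genes among 19057 genes named on the array, and Fosl1 was not analysed here. The samples were mouse embryonic stem (ES) cells, 3 transfected with shRNA directed at Ep400 (shEp400) and 3 labelled control. The Ep400 protein is a chromatin remodelling ATPase that works with the acetyltransferase Tip60. All 6 samples shared the same handling per the labels' protocols: growth on mitomycin C-inactivated fibroblasts (feeder cells) in 15% serum with the cytokine LIF, electroporation of the pHYPER vector, and 48 h of puromycin begun 24 h after electroporation. The labels do not say what the control vector carried, how many shRNA sequences were used, or whether samples came from separate cultures. The p-values therefore reflect the scatter among these arrays alone, and that scatter may be purely technical.

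AP-1 is a dimer of basic leucine zipper (bZIP) proteins, in which a Jun protein binds itself or a Fos protein and the pair binds DNA. Fos proteins do not form stable dimers with themselves and need a Jun partner. Most of these genes are immediate early genes: serum, growth factors and stress switch them on through MAP kinases within minutes, before any new protein is made. The transcripts are short-lived, and dual-specificity phosphatases, themselves induced, shut the kinases off again. In fibroblasts AP-1 drives cell cycle entry, matrix proteases and cytokines. As the samples were bulk RNA, a change in the number of cells of one type and a change in the RNA made per cell cannot be told apart.

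Each sample was read on 1 Illumina bead array, on which a probe's brightness reports its transcript. The arrays detected between 16152 and 17337 probes in shEp400 cells and between 15441 and 16096 in control cells. Levels are given as normalized log2 signals, and changes as shEp400 minus control on the log2 scale. All 6 arrays lay on one slide with each group in neighbouring positions, so slide position and group cannot be told apart. Ep400 itself had log2 signals of 8.88, 9.11 and 9.14 in shEp400 cells, against 9.72, 9.58 and 9.56 in control cells (log2 change -0.58, SE 0.16, limma adjusted p = 0.0159). The groups did not overlap, and the value rests on 1 of its 3 probes. Ep400 did not pass in 2 of the 15 alternative settings. Its log2 change was -0.42 after cyclic loess (adjusted p = 0.0631). Leaving out control replicate 1 gave -0.53 (adjusted p = 0.0616). The ES factors Pou5f1, Nanog and Sox2 were detected on all 6 arrays. Sox2 fell by 1.60 on the log2 scale in shEp400 cells (SE 0.28, limma adjusted p = 0.00144). Pou5f1 (log2 change -0.49, limma adjusted p = 0.112) and Nanog (-0.30, limma adjusted p = 0.147) did not pass the test.

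AP-1 genes rose in shEp400 cells. Fosl2, Jun and Ier3 rose most, by 6.40-fold, 5.87-fold and 4.45-fold. Junb rose 2.12-fold, Fos 1.97-fold and Jund 1.62-fold. Without background correction the log2 changes of Fosl2, Jun and Ier3 were 2.05, 1.50 and 2.09, so Ier3 then rose most. Maff was detected only in shEp400 cells, and Egr1 did not pass the test. Of the 13 probes, 8 passed the filter of detection on at least 3 arrays, 1 for each of 8 genes. Of those 8 genes 7 were called higher and 0 lower by limma (0 lower also at an unadjusted p under 0.05). The comparison called 43.7% of the 9736 tested genes, 20.6% higher and 23.1% lower, and 40.9% of the 16392 probes past the filter. Maff passed the filter through its shEp400 arrays alone. Among genes detected on at least 1 control array, 6 of 7 were called higher, against 18.9% of all such genes. The median log2 change was 1.05 over the 8 genes and -0.06 over all genes tested. Without Maff it was 1.09, against -0.08 over all genes detected on a control array. The shEp400 values lay above all control values for 7 of the 8, against 25.1% of all genes. They lay below all control values for 0 of the 8, against 30.3% of all genes. The 7 include Maff, whose place above the control arrays was favoured by the filter. Markers of fibroblasts moved with these genes, as described further below, and their part in the rises was not tested.

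**Figure D1:**
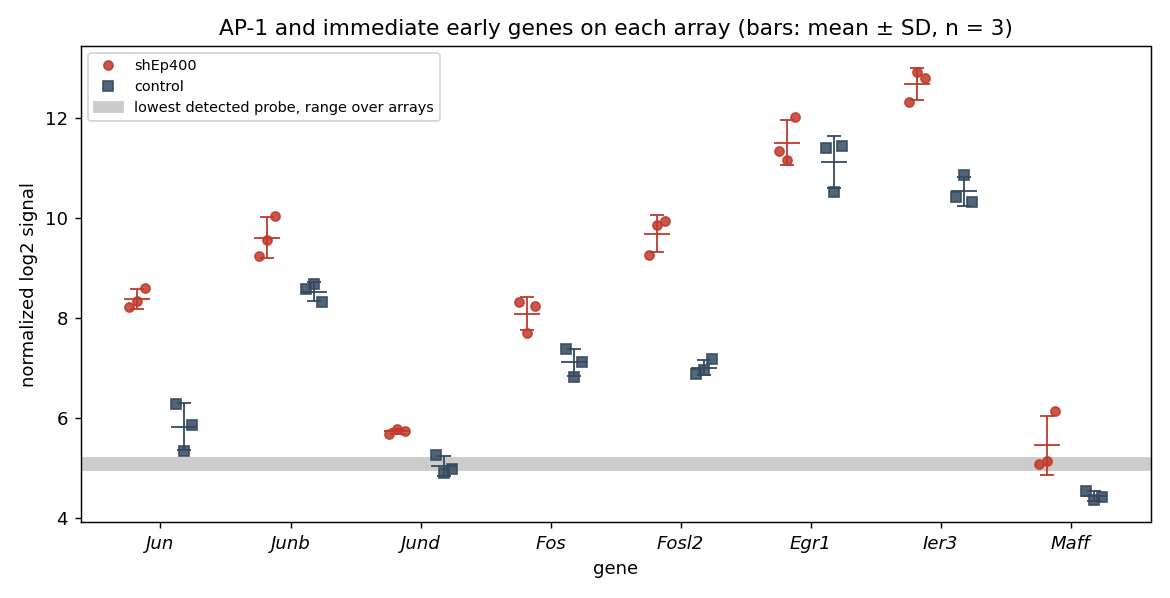
Normalized log2 signal (y axis) of the 8 tested genes (x axis) on every array: points are arrays, bars are mean ± SD of 3 arrays, and the grey band spans the lowest signal of a detected probe on each array. The shEp400 values lay above all control values for every gene drawn but Egr1, against 25.1% of all genes. The control values of Maff lay below the band, and its place above the control arrays was favoured by the filter.

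Jun is the founding AP-1 subunit and the main target of the JNK kinases. Its log2 signals were 8.21, 8.33 and 8.59 in shEp400 cells, against 6.28, 5.32 and 5.86 in control cells. As deposited, before any correction, the probe read 399, 394 and 615 in shEp400 cells and 144, 133 and 152 in control cells. The groups lay far apart, and the control signals were close to the array background. Jun averaged 8.38 ± 0.195 in shEp400 cells and 5.82 ± 0.478 in control cells (SD, n = 3 each). The log2 change was 2.55 (SE 0.24, limma adjusted p = 8.21e-05). With so dim a control, its size depended on the background correction. It was 1.50 without background correction and 1.51 in the deposited processed matrix, both still called.

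Junb is a weaker activator than Jun and in many cells restrains it. Its log2 signals were 9.23, 9.56 and 10.03 in shEp400 cells, against 8.57, 8.68 and 8.31 in control cells. The groups did not overlap, and shEp400 replicate 3 was highest. Junb averaged 9.61 ± 0.403 in shEp400 cells and 8.52 ± 0.193 in control cells (SD, n = 3 each), a log2 change of 1.09 (SE 0.22, limma adjusted p = 0.00343). Its other probe was above background on 0 of 6 arrays.

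Jund is the subunit that most cells make without stimulation. Its single probe was dim, at 5.68, 5.78 and 5.72 in shEp400 cells and 5.25, 4.88 and 4.96 in control cells. It was detected on 3 shEp400 arrays and 1 control array. The groups did not overlap, and the log2 change was 0.69 (SE 0.17, limma adjusted p = 0.00796). The call was lost without background correction (log2 change 0.22, adjusted p = 0.0916) and in the deposited processed matrix (0.22, adjusted p = 0.0905).

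Fos is the classic serum-induced gene. Its log2 signals were 8.31, 7.70 and 8.24 in shEp400 cells, against 7.37, 6.82 and 7.12 in control cells. The lowest shEp400 value stood 0.33 above the highest control value on the log2 scale. Fos averaged 8.08 ± 0.333 in shEp400 cells and 7.10 ± 0.279 in control cells (SD, n = 3 each), a log2 change of 0.98 (SE 0.22, limma adjusted p = 0.00536).

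Fosl2 encodes Fra-2, a Fos relative without the strong activation domain of Fos, which accumulates later after a stimulus and lasts longer. Its probe read 714, 957 and 1369 in shEp400 cells, against 175, 203 and 229 in control cells as deposited. In log2 signals these were 9.25, 9.86 and 9.93 in shEp400 cells and 6.88, 6.96 and 7.17 in control cells. Every shEp400 array read above every control array on either scale. Fosl2 averaged 9.68 ± 0.372 in shEp400 cells and 7.001 ± 0.151 in control cells (SD, n = 3 each). Its log2 change of 2.68 (SE 0.21, limma adjusted p = 3.5e-05) was ranked 45 among the 9736 tested genes from the largest rise down, with Jun at 59 and Ier3 at 172. Without background correction the log2 change of Fosl2 was 2.05. Its other 2 probes were above background on 0 of 6 arrays.

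Maff is a small Maf protein, a bZIP factor with no activation domain of its own that pairs with itself or with Cap'n'collar factors such as Nfe2l2. One of its probes gave 5.07, 5.13 and 6.13 in shEp400 cells and 4.54, 4.36 and 4.40 in control cells. All 3 shEp400 arrays and 0 control arrays detected it, so only a bound can be given. Maff was at least 1.23-fold higher in shEp400 cells (measured means 5.44 in shEp400 and 4.43 in control cells). The bound sets the shEp400 mean against, per control array, the lowest signal of a detected probe. Only shEp400 replicate 3 lay clearly above those signals, which were 5.10, 5.20 and 5.12, so the bound rests on it. The fitted log2 change was 1.01 (limma adjusted p = 0.0125), which uses control values not above background. That p-value does not belong to the bound, and Maff passed the filter through shEp400 arrays alone. The change was 0.67 without shEp400 replicate 3, the brightest array for this gene, and 0.35 without background correction, both still called. The second probe of Maff was above background on 0 of 6 arrays.

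Egr1 encodes a zinc finger factor that is induced alongside Fos through serum response factor. It was bright in both groups, at 11.34, 11.16 and 12.02 in shEp400 cells and 11.41, 10.52 and 11.43 in control cells. The groups overlapped. Egr1 averaged 11.5 ± 0.452 in shEp400 cells and 11.1 ± 0.517 in control cells (SD, n = 3 each). The log2 change was 0.39 (SE 0.29, limma adjusted p = 0.306), with a 95% confidence interval from -0.26 to 1.04, so a rise as large as that of Fos is within the interval. It passed the test in 0 of the 15 alternative settings. Its relatives Egr2 and Egr3, singled out here after their values were seen, rose, and Egr4 did not pass the detection filter. Egr2 averaged 6.65 ± 0.438 in shEp400 cells and 5.24 ± 0.324 in control cells (SD, n = 3 each, limma adjusted p = 0.00165). It was dim in control cells, and 3 shEp400 arrays and 2 control arrays detected it. Egr3, which no control array detected, passed the filter through shEp400 arrays alone and had a rise of at least 1.32-fold in shEp400 cells. Its limma adjusted p = 0.00407 belongs to the fitted log2 change of 0.996, which uses control values not above background.

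Ier3 (IEX-1) is a short-lived stress protein that modulates apoptosis and is induced by NF-κB, p53 and MAP kinases. Its probe read 5008, 6987 and 8607 in shEp400 cells, against 1189, 1826 and 1440 in control cells as deposited. The log2 signals were 12.32, 12.93 and 12.81 in shEp400 cells, against 10.42, 10.85 and 10.31 in control cells. The lowest shEp400 array read well above the highest control array. Ier3 averaged 12.7 ± 0.323 in shEp400 cells and 10.5 ± 0.284 in control cells (SD, n = 3 each), a log2 change of 2.15 (SE 0.22, limma adjusted p = 0.000102). The change stayed between 1.87 and 2.34 in the alternative settings. Ier2, an immediate early nuclear protein, has 1 probe here, which was above background on 0 of 6 arrays, with signals between 102 and 122. Nothing can be said of its direction.

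**Figure D2:**
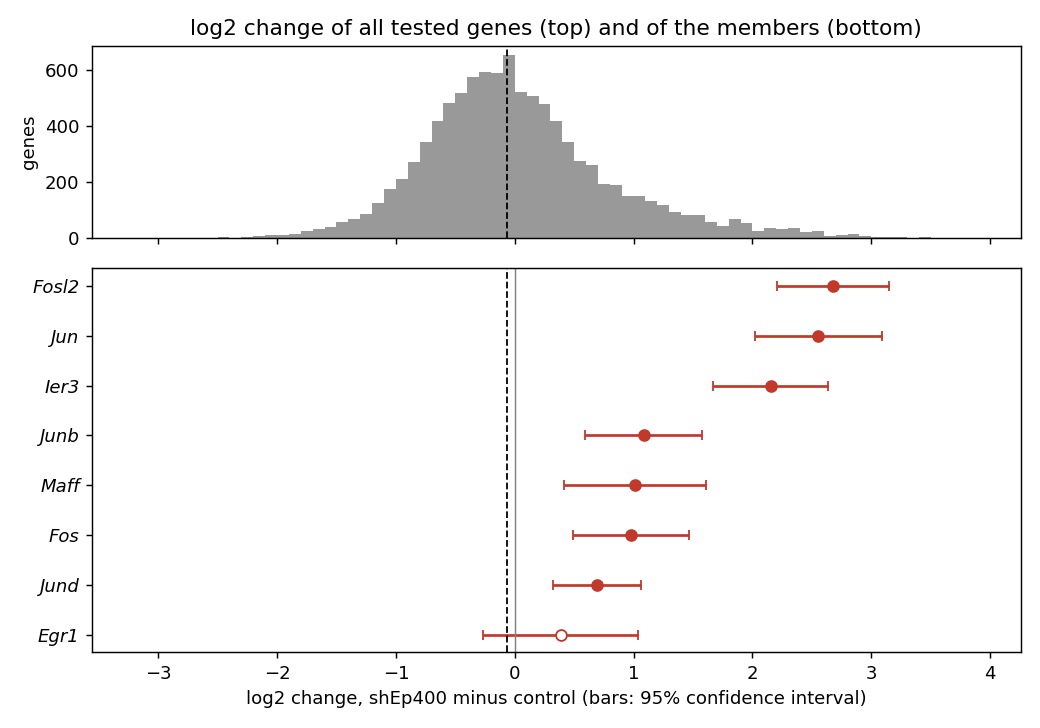
Top, number of tested genes (y axis) by log2 change, shEp400 minus control (x axis). Bottom, the 8 tested AP-1 and immediate early genes with 95% confidence intervals, filled where limma's adjusted p was under 0.05, and the dashed line marks the median of all genes, -0.06. Fosl2, Jun and Ier3 lay in the upper tail of all genes, and the interval of Egr1 spanned 0.

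Whether related genes rose to the same extent was examined within each array. With 3 against 3 arrays no pair could pass 0.05, so the test cannot decide this and the values per array are given. The log2 signal of Jun minus that of Jund was 2.53, 2.55 and 2.86 in shEp400 cells, against 1.02, 0.44 and 0.90 in control cells. The groups differed by 1.86, but Jund was not above background on 2 of the 3 control arrays, so its own change has no exact size. Jun minus Junb differed by 1.47 between the groups, at -1.02, -1.23 and -1.44 in shEp400 cells, against -2.30, -3.36 and -2.44 in control cells. Fos minus Fosl2 was -0.95, -2.16 and -1.68 in shEp400 cells, against 0.50, -0.14 and -0.05 in control cells (difference -1.70). The groups did not overlap for these 3 pairs. Each had an exact permutation p = 0.1, two-sided, the smallest that 3 against 3 arrays allow, and an adjusted p = 0.133 over the 4 pairs tested by exact permutation. Junb minus Jund overlapped between the groups (difference 0.39, exact permutation p = 0.3). Both differences with Jun depended on the background correction, and without it were 0.57 for Jun minus Junb and 1.28 for Jun minus Jund. The difference for Junb minus Jund depended on it too, and was 0.71 without it (exact permutation p = 0.1).

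The promoters were searched for short motifs in common. RefSeq windows (GRCm38.p6) from 250 bases before to 50 bases after an annotated start were at hand for 7 of the 10 genes, 9 windows in all. Matches on both strands were searched for the AP-1 site TGANTCA, the cAMP response element TGACGTCA, the GC box GGGCGG and the CArG box bound by serum response factor. The octamer TGACATCA, an AP-1 variant known from the Jun promoter, was added after the windows had been read. TGANTCA occurred in 0 of the 9 windows and in 7.81% of all 32851 windows, and the CArG box in 0 of 9 and in 1.63% of all windows. TGACATCA occurred in the window of Jun and in 1 of 3 windows of Maff, in each case at position -45 from the start, and in 3.62% of all windows. TGACGTCA occurred in another Maff window, at position -29, and in 1.79% of all windows. GC boxes, the only motif found near Fos, Fosl2 and Ier3, occur in 35.7% of all windows. Shown are the 250 upstream bases of Jun (minus strand, chr4:95052223-95052472), with TGACATCA in capitals, and of Maff (plus strand, chr15:79347270-79347519), with TGACGTCA in capitals. GC boxes are not in capitals, and the Maff window with TGACATCA is not shown. The 250 upstream bases of Fosl2 (plus strand, chr5:32136222-32136471), which rose most and holds neither octamer, are also shown.
Jun: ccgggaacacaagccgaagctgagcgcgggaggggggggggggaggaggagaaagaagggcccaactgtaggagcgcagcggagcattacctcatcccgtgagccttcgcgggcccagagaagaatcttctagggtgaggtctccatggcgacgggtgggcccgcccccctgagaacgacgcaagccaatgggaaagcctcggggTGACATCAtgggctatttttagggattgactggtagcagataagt
Maff: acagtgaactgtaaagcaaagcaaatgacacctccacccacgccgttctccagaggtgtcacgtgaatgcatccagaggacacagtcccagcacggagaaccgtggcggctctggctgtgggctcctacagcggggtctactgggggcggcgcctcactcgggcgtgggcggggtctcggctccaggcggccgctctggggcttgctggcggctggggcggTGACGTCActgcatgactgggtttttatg
Fosl2: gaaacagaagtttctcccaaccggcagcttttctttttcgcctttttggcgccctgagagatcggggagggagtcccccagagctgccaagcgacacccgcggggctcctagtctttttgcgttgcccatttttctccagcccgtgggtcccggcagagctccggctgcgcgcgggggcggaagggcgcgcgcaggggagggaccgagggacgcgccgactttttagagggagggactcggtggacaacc
A match is a description of the letters only, and elements farther upstream lie outside these windows.

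Several bZIP partners of these proteins rose too. From a list of 20 partner genes, 10 passed the filter, of which 7 rose and 0 fell (limma; 0 lower also at an unadjusted p under 0.05), against 20.6% of all genes called higher. Atf3, a stress-induced repressor that pairs with Jun, had log2 signals of 6.95, 7.04 and 7.20 in shEp400 cells, against 5.55, 4.53 and 5.23 in control cells. It was detected on 3 shEp400 arrays and 2 control arrays, and rose 3.89-fold (limma adjusted p = 0.00027). Jdp2, a Jun dimerization protein that represses AP-1 sites, averaged 6.83 ± 0.384 in shEp400 cells and 5.63 ± 0.485 in control cells (SD, n = 3 each), a rise of 2.29-fold. Nfe2, a partner of small Maf proteins best known from blood cells, also rose 2.29-fold and was detected on 3 shEp400 arrays and 1 control array. Without background correction the log2 changes of Atf3, Jdp2 and Nfe2 were 0.84, 0.53 and 0.42, against 1.96, 1.20 and 1.20 with it. Mafg, a second small Maf gene, was not called, at a log2 change of 0.29 (SE 0.23). The Fos relative Fosb and the small Maf gene Mafk were each detected on 1 of 6 arrays and were not tested.

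Most other immediate early genes tested were also higher. From a list of 34, 26 passed the filter, and 19 rose and 0 fell (limma; 20 higher and 0 lower at an unadjusted p under 0.05), against 20.6% of all genes called higher and 23.1% lower. The median log2 change was 1.18. Without Egr3, which passed through shEp400 arrays alone, 18 of 25 rose, against 18.9% of all genes detected on a control array, with a median of 1.24. Gadd45g, a stress gene that activates p38 and JNK signalling, averaged 11.5 ± 0.383 in shEp400 cells and 8.45 ± 0.290 in control cells (SD, n = 3 each), a rise of 8.11-fold. The GTPase gene Rhob averaged 10.2 ± 0.549 in shEp400 cells and 7.68 ± 0.261 in control cells (SD, n = 3 each), and Phlda1 averaged 10.8 ± 0.539 in shEp400 cells and 8.40 ± 0.170 in control cells (SD, n = 3 each). They rose 5.85-fold and 5.37-fold. Myc, a proto-oncogene of the same class, was not called, at a log2 change of 0.43 (SE 0.26, limma adjusted p = 0.206). The orphan receptor genes Nr4a1, Nr4a2 and Nr4a3 and the prostaglandin synthase gene Ptgs2 were among 7 listed genes with a probe that did not pass the filter.

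Genes known for AP-1 sites in their control regions were mostly higher. Of 16 that passed the filter from a list of 23, 13 rose and 0 fell (limma; 0 lower also at an unadjusted p under 0.05), against 20.6% of all genes called higher and 23.1% lower. Their median log2 change was 1.96. The hyaluronan receptor Cd44 averaged 10.8 ± 0.547 in shEp400 cells and 8.23 ± 0.140 in control cells (SD, n = 3 each), a rise of 6.01-fold. The chemokine Ccl2 averaged 9.47 ± 0.471 in shEp400 cells and 6.93 ± 0.196 in control cells (SD, n = 3 each), a rise of 5.82-fold. Haem oxygenase, Hmox1, spread widely, at 9.39, 10.60 and 12.20 in shEp400 cells against 8.40, 7.42 and 8.67 in control cells. It rose 5.93-fold (limma adjusted p = 0.0061), a call lost with an intensity trend and robust prior (adjusted p = 0.0616). Ccnd1, cyclin D1, rose 2.63-fold, at 12.13, 12.47 and 12.96 in shEp400 cells against 11.21, 10.89 and 11.28 in control cells. Many genes of this list, Cd44 and Ccl2 among them, are also expressed by fibroblasts.

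**Figure D3:**
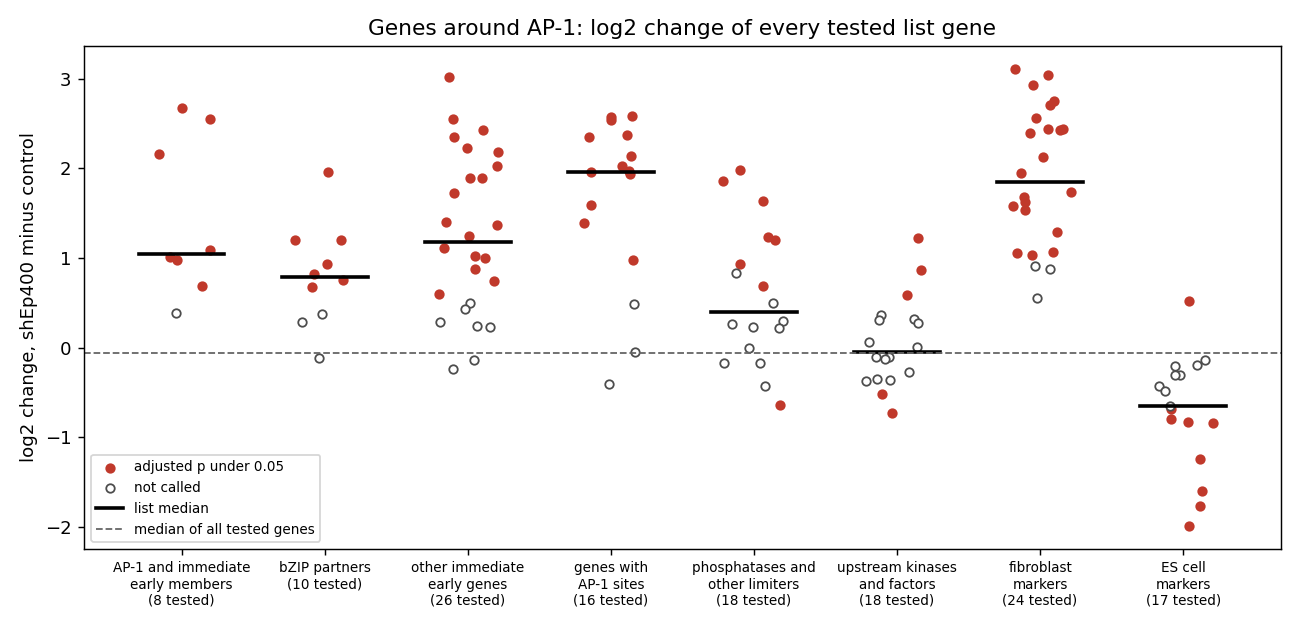
Log2 change, shEp400 minus control (y axis), of every tested gene in 8 gene lists (x axis, with the number tested): filled points had an adjusted p under 0.05, black bars are list medians and the dashed line is the median of all genes. Medians were 1.05 for the AP-1 and immediate early genes, 1.96 for genes with AP-1 sites, -0.05 for upstream kinases and factors, 1.85 for fibroblast markers and -0.65 for ES cell markers.

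The upstream kinases and factors were called in both directions. Of 18 that passed the filter from a list of 32, 3 rose and 2 fell, against 20.6% of all genes called higher and 23.1% called lower, and the median log2 change was -0.05 (0.08 with cyclic loess normalization). Without Elk3, which passed the filter through shEp400 arrays alone, 2 of 17 rose, against 18.9% of all genes detected on a control array. Mapkapk2, the kinase below p38, averaged 9.38 ± 0.217 in shEp400 cells and 8.15 ± 0.271 in control cells (SD, n = 3 each), a rise of 2.34-fold (limma adjusted p = 0.000957). Elk3, a ternary complex factor that acts with serum response factor, was above background on 0 control arrays. Its rise in shEp400 cells came to at least 1.24-fold. The limma adjusted p = 0.00315 of Elk3 belongs to the fitted log2 change of 0.87 and not to this bound. Map2k4, which activates JNK, rose 1.50-fold, Map3k1 fell by 0.51 on the log2 scale and Map2k6, which activates p38, fell by 0.73 on the log2 scale. The calls of Map2k4 and Map3k1 were each lost in 6 of the 15 alternative settings, and that of Map2k6 without control replicate 1 (adjusted p = 0.0677). The JNK genes Mapk8 and Mapk9 did not pass the test (log2 changes -0.35 and -0.13, SE 0.19 for each), nor did Srf, serum response factor (0.28, SE 0.19). Elk1, another ternary complex factor, was above background on 0 of 6 arrays.

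Some of the genes that limit this response rose, MAP kinase phosphatases among them. Of 18 genes that passed the filter from a list of 20, 7 rose and 1 fell, against 20.6% of all genes called higher and 23.1% lower, with a median log2 change of 0.40. Dusp1, an immediate early phosphatase of p38 and JNK, had log2 signals of 11.39, 11.41 and 12.13 in shEp400 cells, against 10.15, 10.19 and 9.66 in control cells, a rise of 3.12-fold (limma adjusted p = 0.000604). The ERK phosphatase gene Dusp5 averaged 9.49 ± 0.367 in shEp400 cells and 7.51 ± 0.216 in control cells (SD, n = 3 each), a rise of 3.96-fold. Dusp10, a phosphatase of p38 and JNK detected on 2 of 3 control arrays, rose 3.62-fold, with a log2 change of 1.86, against 0.85 without background correction. The ubiquitin ligase genes Itch, Fbxw7 and Cop1, whose products mark Jun for degradation, were not called, with log2 changes of -0.17, -0.17 and 0.00. Det1, a partner of Cop1, was dim, detected on 1 shEp400 array and 3 control arrays. It fell by 0.64 on the log2 scale (limma adjusted p = 0.0193), a call lost in 4 of the 14 alternative settings that tested it. Nab2, a corepressor of Egr1, was detected on 2 of 6 arrays and was not tested.

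Fibroblast markers rose beside the AP-1 genes. Of 24 that passed the filter from a list of 32, 21 rose and 0 fell (limma; 23 higher and 0 lower at an unadjusted p under 0.05), against 20.6% of all genes called higher and 23.1% lower. Without Ddr2, which passed through shEp400 arrays alone, 20 of 23 rose, against 18.9% of all genes detected on a control array. The log2 changes of the 24 ranged from 0.55 (Col1a2) to 3.11 (Lox). The summed signal of the 24 ranged from 43192 to 62437 in shEp400 cells and from 9625 to 11871 in control cells. Col3a1, Col5a2, Cnn1, Fap, Postn and S100a4 did not pass the detection filter. Of 17 ES cell markers 8 fell and 1 rose, against 23.1% of all genes called lower and 20.6% higher. With 75th percentile scaling 12 fell, where 2755 of all 9736 genes were called lower. Leaving out control replicate 1 left 5, where 1673 of the 9736 genes were called lower. The rise, of Sall4, was not called in several settings. Their summed signal ranged from 59999 to 83633 in shEp400 cells and from 89987 to 91293 in control cells. The median deviation of the fibroblast markers from their control mean was 1.69, 1.92 and 2.08 on shEp400 arrays 1, 2 and 3, and that of the ES cell markers -0.35, -0.53 and -1.10. For the 8 AP-1 and immediate early genes it was 0.95, 0.89 and 1.61. Fosl2 (2.25, 2.86 and 2.93), Jun (2.39, 2.51 and 2.77) and Ier3 (1.79, 2.40 and 2.28) exceeded the fibroblast median on every shEp400 array, within the range of the single markers. The other 5 genes lay below it on every shEp400 array: Junb (0.71, 1.04 and 1.51), Jund (0.65, 0.74 and 0.69), Fos (1.20, 0.60 and 1.14), Maff (0.64, 0.69 and 1.70) and Egr1 (0.22, 0.04 and 0.90). The part of feeder RNA in these rises was not tested.

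**Figure D4:**
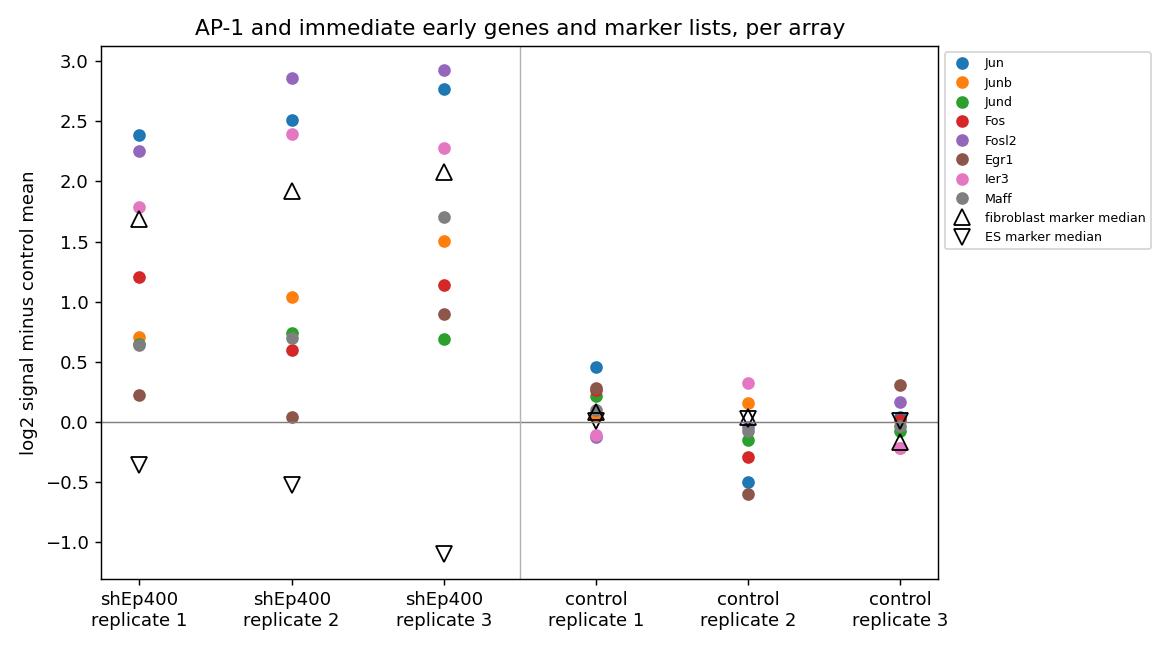
Log2 signal minus the control mean of each gene (y axis) on the 6 arrays (x axis): coloured points are the 8 AP-1 and immediate early genes, open upward triangles the median of 24 fibroblast markers and open downward triangles the median of 17 ES cell markers. On shEp400 arrays Jun, Fosl2 and Ier3 lay above the fibroblast median, at 1.69, 1.92 and 2.08, and Egr1 was the lowest of the 8 genes on arrays 1 and 2.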

How the data were processed

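The deposited table gives linear probe intensities for 45281 probes. A detection p-value accompanies each, per the file headers. The submitters' processing notes name GenomeStudio, without a version. The values show no background subtraction (lowest signals 77.6 to 88.7) and no scaling between arrays. The processed matrix, also linear intensities, had a median of 114 on every array and the probe order of the first table. It served as an alternative. The number of arrays limits the precision.

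Platform annotation gave 1 gene symbol to 34885 probes, 18 probes had several and 10378 none. Entrez IDs matched 34807 probes to RefSeq (GRCm38.p6), which changed 0 symbols. No genome build for the probes was given, and no probe coordinates are printed. RefSeq supplied the promoter windows.

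Log2 values were computed with neqc in limma 3.58.1 (R 4.3.3), offset 16. The filter kept probes that 3 or more arrays detected (p under 0.01), and the brightest stood for its gene. Groups were compared with lmFit and eBayes, two-sided, with Benjamini-Hochberg adjustment over 9736 genes at 0.05, without covariates and with 4 residual degrees of freedom. The steps were tested on simulated data. Besides the AP-1 and immediate early genes, the rule named Ep400, 13 related genes by name, and up to 3 rises and 3 falls per list. Genes and lists were chosen with earlier results of these data known.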

Additional observations from a re-analysis of the deposited data

How the results depend on the processing

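The 15 alternatives changed the background correction, normalization, source of the values, filter, choice of probe or variance prior, or left out 1 array. Every tested AP-1 or immediate early gene kept its direction in all of them, and only the call of Jund was lost, in 2 settings given above. Between 5 and 7 of these genes were called higher: 6 without background correction and in the processed matrix, and 5 of 6 tested when detection on all 6 arrays was required, which leaves out Jund and Maff. Leaving out 1 array each kept 7 called higher and 0 lower, with 3179 to 4380 genes and 4928 to 6866 probes called, against 4251 genes and 6706 of 16392 probes. Cyclic loess called 2436 genes higher and 1667 lower, 75th percentile scaling 1771 higher and 2755 lower, and quantile normalization 2005 higher and 2246 lower. The median change of all genes was 0.05 with cyclic loess and -0.17 with 75th percentile scaling. Without the filter 10.04% of genes were called higher. With detection required on all arrays 4 bZIP partners rose. No paired analysis was possible because the labels carry no shared replicate numbers. In upstream bases alone TGANTCA occurred in 6.75% and TGACATCA in 2.93% of windows. Dim control signals limit the fold of Jun, Jund, Maff and Atf3.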
